A study of Mus musculus with 2 samples.

Results

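The 8 genes described here encode SNARE proteins of membrane fusion and proteins that act on them: Snap25, Snap47, Stx1a, Vamp2, Vamp1, Cplx1, Cplx2 and Nsf. They were taken by name, and all 8 were found among the 18510 annotated genes that had at least 1 read in either library. RNA came from the left cerebral cortex of female mice of the strain B6CASTF1/J at 14 days of age. B6CASTF1/J mice are F1 hybrids, with C57BL/6J as one parent strain and CAST/EiJ as the other. Total RNA was sequenced as long reads in 2 libraries of 1 group, each from 2 µg of RNA, so no treatment, genotype, sex or age is contrasted. Replicate 1 may be a pool, since its description speaks of more than 1 female, and both libraries share a donor entry that stands for the strain. The labels number them as biological replicates but do not name the animals, and p-values weigh 2 libraries against read-counting error only. All the RNA is from 1 age and 1 region, and changes with development cannot be read from it.

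A SNARE complex forms when a vesicle protein of the VAMP family zips together with a syntaxin and a SNAP-25 protein of the target membrane, which pulls the membranes into fusion. Complexins bind the assembled complex and gate its last step, and the ATPase NSF takes spent complexes apart so that their subunits can be used again. The Snap25 gene carries alternative exons 5a and 5b, of which a transcript uses 1, and rodent brain is known to move from the 5a form towards the 5b form as synapses mature after birth.

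Replicate 1 held 1072344 mouse reads and replicate 2 held 753520. A read is 1 sequenced molecule, so levels are given as RPM, reads scaled to 1000000 mouse reads, with transcript lengths beside them. Reads were not corrected for duplicates, so a read need not stand for a distinct RNA molecule. In RPM, 1 read was worth 0.933 in replicate 1 and 1.33 in replicate 2. A count of 0 allows up to 2.80 RPM in replicate 1 and 3.98 RPM in replicate 2, taking 3 reads as the limit. Intervals are Wilson 95% intervals and, like these limits, cover counting error only. Neuron markers were present, with 6 of 6 excitatory and 5 of 5 inhibitory neuron markers found in both libraries. No read fell on 2 of 3 cerebellar markers, Pcp2 and Cbln3, and the third added 0.933 RPM in replicate 1 alone. Of 4 striatal markers, 3 were found in both libraries, and they summed to 315 RPM in replicate 1 and 206 RPM in replicate 2. Summed excitatory neuron markers stood at 1558 RPM in replicate 1 and 1383 RPM in replicate 2, and inhibitory ones at 352 and 299.9 RPM. Summed oligodendrocyte markers stood at 4961 RPM in replicate 1 and 3005 RPM in replicate 2, and summed choroid plexus markers at 25.2 and 257 RPM. In such bulk RNA fewer cells of a type and less RNA per cell cannot be told apart, and the part of cell composition in the results below was not tested.

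Snap25 encodes the SNAP-25 protein, which supplies a pair of the helices of the neuronal SNARE complex. The gene lies at chr2:136713453-136782428 on the plus strand (mm10). Its annotated transcripts Snap25-202 and Snap25-201 share every internal exon but the fifth. Snap25-202 carries exon 5a at chr2:136769743-136769860 and Snap25-201 carries exon 5b at chr2:136770057-136770174, both inside the coding sequence. The exons are 118 bases long each and lie 196 bases apart. Both are printed here 5′ to 3′ on the transcribed strand from the GENCODE M21 transcripts, since the choice between them is the result that follows; capitals mark the positions at which they differ.
exon 5a: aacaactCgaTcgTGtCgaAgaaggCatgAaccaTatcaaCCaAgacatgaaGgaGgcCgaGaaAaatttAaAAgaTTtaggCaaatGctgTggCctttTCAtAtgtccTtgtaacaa
exon 5b: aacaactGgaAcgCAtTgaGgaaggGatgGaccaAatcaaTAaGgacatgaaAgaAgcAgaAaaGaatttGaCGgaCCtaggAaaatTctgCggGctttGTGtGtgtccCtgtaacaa

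The exons were identical at 87 of 118 positions (73.7%). Of the 31 differences, 23 fell on the third base of a codon. Of the 40 codons that the exon touches, 26 differed in sequence and 9 encoded another amino acid. Both transcripts read through 206 codons, so exon choice swaps residues and leaves the length of the protein as it is.

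Exon 5b was the more used exon in both libraries. It was included in 996 of 1314 informative reads in replicate 1 (75.8%, 73.4 to 78.0%) and in 580 of 804 in replicate 2 (72.1%, 68.9 to 75.1%), a mean of 74.0% ± 2.59 (SD, n = 2). Exon 5a was included in 320 of 1314 reads in replicate 1 (24.4%, 22.1 to 26.7%) and in 222 of 802 in replicate 2 (27.7%, 24.7 to 30.9%), a mean of 26.0% ± 2.35 (SD, n = 2). A read is informative for an exon when it contains the exon with both splice sites or has an intron that spans it. The intervals of the libraries overlap for each exon. Two-sided Fisher's exact tests of replicate 2 against replicate 1 gave p = 0.0905 for exon 5a and p = 0.0648 for exon 5b, with an adjusted p of 1 for both after Benjamini-Hochberg adjustment over 43916 annotated internal exons.

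The pair behaved as exclusive in nearly every read. Reads that joined both exons numbered 2 in replicate 1 and 1 in replicate 2, and reads that skipped both numbered 0 and 1. A chain of 9 exons that holds both, seen in 2 reads in replicate 1 and 1 in replicate 2, would end its reading frame after 99 codons, 370 bases before its last junction. Of the reads with exactly 1 of the exons, exon 5a made up 318 of 1312 in replicate 1 (24.2%) and 221 of 800 in replicate 2 (27.6%). Whole transcripts are mostly the same reads and differ inside by this exon, so their split is not a separate observation. Snap25-201 took 960 of 1293 full chains in replicate 1 (74.2%) and 562 of 795 in replicate 2 (70.7%), and Snap25-202 took 307 (23.7%) and 214 (26.9%). A full chain is an annotated transcript or a complete unannotated chain of introns.

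**Figure D1:**
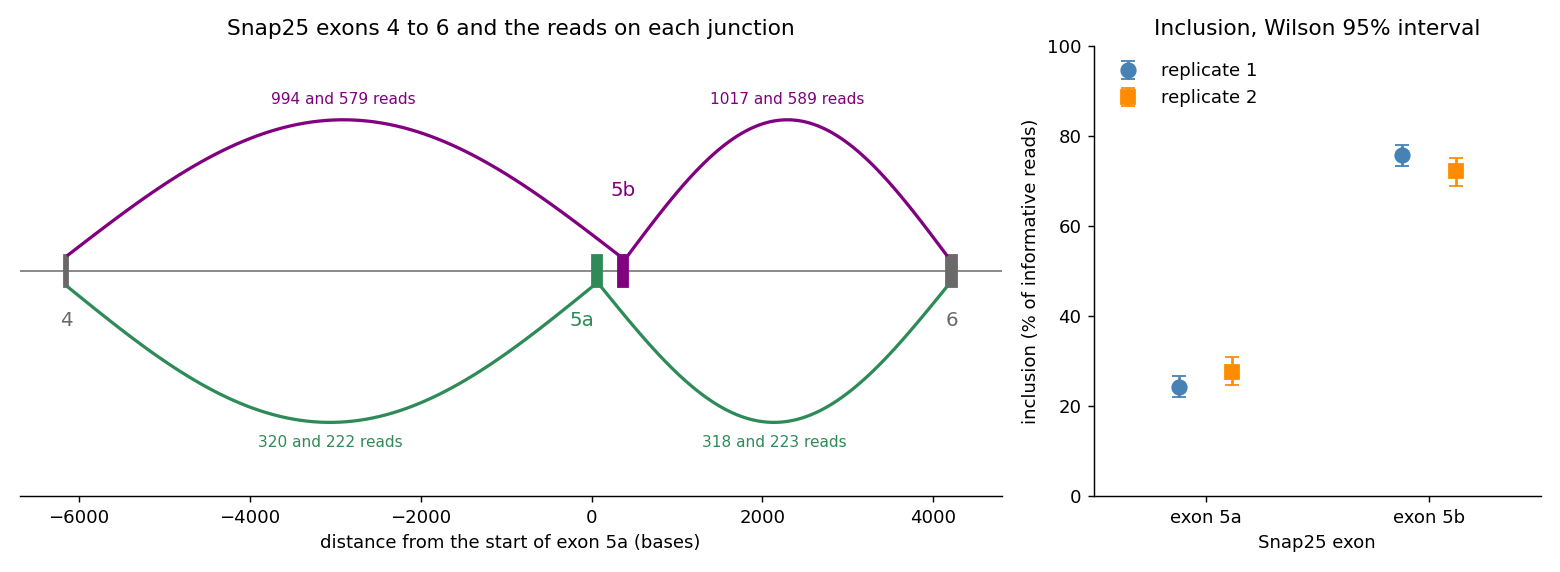
Left, exons 4 to 6 of Snap25 drawn to scale against the distance in bases from the start of exon 5a, with arcs for the junctions that join them and the reads on each (replicate 1, then replicate 2). Right, inclusion of each exon in percent of informative reads with Wilson 95% intervals: exon 5b at 75.8 and 72.1%, exon 5a at 24.4 and 27.7%, with overlapping intervals between libraries.

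Only this pair of exons was used at an intermediate level among the 48 annotated internal exons, from 6 of the 8 genes, that had 20 or more informative reads in each library, where intermediate means 5 to 95% inclusion in either library. Over all genes 2685 of 43916 exons (6.11%) were intermediate, and the median difference between libraries among them was 4.81 percentage points without its sign. The differences of exon 5a, 3.33 points, and of exon 5b, -3.66 points (replicate 2 minus replicate 1), are smaller in size than that. However, that median takes in exons that needed only 20 informative reads in each library, against 1314 and 804 for exon 5b. The comparison is not made at like depth and does not show that the pair is steadier than other exons. No exon of any gene was called (0 of 43916, 0%, by Fisher's exact test at an adjusted p under 0.05), and 135 had an unadjusted p under 0.05. Most exons tested were not intermediate and could hardly give a small p, so this count says little about intermediate exons.

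As a gene, Snap25 had the most reads of the 8 on its own strand and ranked 57 among all genes with a read; counting reads assigned to the opposite strand too would put Cplx2 above it in replicate 2. It had 1403 reads in replicate 1 (1308 RPM) and 857 in replicate 2 (1137 RPM), a mean of 1223 ± 121 RPM (SD, n = 2) for a main transcript of 2116 bases. Annotated transcripts made up 90.3% of its reads in replicate 1 and 90.5% in replicate 2. Most Snap25 reads held the outer junctions of the chain, since the first junction of Snap25-201 was in 91.2% and 91.5% of the gene's reads and the last in 97.6% and 98.4%. Junctions do not show whether reads reached the ends of the transcript. Beside the exon pair, 5 unannotated chains were found in both libraries, meaning 2 or more reads in 1 library and at least 1 in the other. The most abundant of them used a donor 183 bases downstream of the usual end of exon 1 and had 11 reads in replicate 1 and 6 in replicate 2. The next used that donor together with exon 5a, in 2 and 4 reads. This donor took 13 reads in replicate 1 (1.01%, 0.589 to 1.71%) and 10 in replicate 2 (1.26%, 0.686 to 2.30%) of those on either donor.

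Snap47 encodes a SNAP-25 relative that lacks the cysteine cluster through which SNAP-25 is anchored in the membrane. It lies at chr11:59407134-59451186 on the minus strand, with a main transcript of 1896 bases. It had 856 reads in replicate 1 (798 RPM) and 504 in replicate 2 (669 RPM), a mean of 734 ± 91.5 RPM (SD, n = 2), rank 131. Of the 6 genes with enough full chains to test, it had the largest share of them outside the annotation in each library.

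Unannotated full chains made up 110 of 856 Snap47 reads in replicate 1 (12.9%, 10.8 to 15.3%) and 88 of 504 in replicate 2 (17.5%, 14.4 to 21.02%), against 10.7% and 10.6% over all annotated genes. All 5 Snap47 chains found in both libraries altered the stretch between exon 1 and exon 2, ahead of the start codon, and all 5 kept the 413 codons of Snap47-201. The most abundant used an acceptor of exon 2 shifted by 3 bases and had 56 reads in replicate 1 (6.79% of full chains) and 44 in replicate 2 (9.03%). The next used an annotated donor of exon 1 that lies 122 bases further downstream, with 31 reads in replicate 1 (3.76%) and 21 in replicate 2 (4.31%). A cassette exon of 50 bases between exons 1 and 2 was included in 1.71% of informative reads in replicate 1 and 2.29% in replicate 2. Snap47-201 itself took 715 of 825 full chains in replicate 1 (86.7%, 84.2 to 88.8%) and 399 of 487 in replicate 2 (81.9%, 78.3 to 85.1%), and the two-sided Fisher's exact test gave p = 0.0252 and an adjusted p of 0.956 over 5134 genes.

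Stx1a encodes syntaxin 1A, the plasma membrane partner of SNAP-25. It lies at chr5:135023482-135051100 on the plus strand, with a main transcript of 2162 bases in 10 exons. It had 957 reads in replicate 1 (892 RPM) and 634 in replicate 2 (841 RPM), a mean of 867 ± 36.1 RPM (SD, n = 2), rank 98. Stx1a-201 took 848 of 900 full chains in replicate 1 (94.2%, 92.5 to 95.6%) and 543 of 588 in replicate 2 (92.3%, 89.9 to 94.2%).

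The rest of the Stx1a reads was spread over minor chains. The most abundant held an annotated intron that joins a later donor of exon 8 to an earlier acceptor of exon 9, in a chain outside the annotation, with 23 reads in replicate 1 (2.56%) and 18 in replicate 2 (3.06%). Its frame ends after 281 codons, 150 bases before the last junction, against 288 codons in Stx1a-201, whose stop lies in the last exon. The next used a donor of exon 9 shifted by 4 bases, in 7 and 5 reads. The annotated transcript Stx1a-204, which the annotation labels as a target of nonsense-mediated decay, the pathway that removes transcripts with an early stop, had 1 read in replicate 1 and 5 in replicate 2.

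Vamp2 encodes synaptobrevin 2, the main vesicle SNARE of forebrain synapses. It lies at chr11:69088490-69092384 on the plus strand, with a main transcript of 2205 bases in 5 exons. It had 1087 reads in replicate 1 (1014 RPM) and 698 in replicate 2 (926 RPM), a mean of 970 ± 61.8 RPM (SD, n = 2), rank 77. Vamp2-201 took 838 of 855 full chains in replicate 1 (98.0%) and 531 of 541 in replicate 2 (98.2%). The 1 unannotated chain in both libraries used a donor of exon 2 shifted by 4 bases, in 4 reads in replicate 1 and 5 in replicate 2, and its frame ends after 65 codons against 116 in Vamp2-201.

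Among the 6 genes whose introns had 20 or more informative reads in each library, Vamp2 alone had introns recorded inside reads at 5% or more, and all 4 of its introns were. No intron of Vamp1 or Cplx2 reached that minimum. Intron 1 was recorded as kept in 218 of 1070 informative reads in replicate 1 (20.4%, 18.1 to 22.9%) and 88 of 627 in replicate 2 (14.0%, 11.5 to 17.0%). Intron 2 was kept in 219 of 1077 reads in replicate 1 (20.3%, 18.04 to 22.8%) and 80 of 621 in replicate 2 (12.9%, 10.5 to 15.7%). Introns 3 and 4 stood at 10.1% and 10.3% in replicate 1 and at 11.7% and 11.5% in replicate 2. Intron 2 passed the two-sided Fisher's exact test (adjusted p = 0.0463), as did 97 of 47541 introns of all genes (0.204%), and intron 1 did not (adjusted p = 0.330).

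Most of these reads come from 2 models. A model of a single exon over the whole gene, in the authors' class Genomic, held 108 reads in replicate 1 (9.94%) and 80 in replicate 2 (11.5%). A chain with introns 3 and 4 spliced held 109 and 68 reads, and its first exon is recorded from position 69088543, in exon 1, in replicate 1 but only from position 69089606, inside intron 2, in replicate 2. The files give 1 span per model, not per read, so the reads of this chain count as keeping introns 1 and 2 in replicate 1 and not in replicate 2. Counted only inside exons that are spliced on both sides, a rule added after the values were seen, the 4 introns were kept in 0 to 2 reads in each library and none was called, against 1 of 46801 introns over all genes (0.00214%). With the Genomic class left out, introns 1 and 2 were both called, at 110 of 962 and 111 of 969 reads in replicate 1 and 8 of 547 and 0 of 541 in replicate 2, against 23 of 47481 over all genes (0.0484%).

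Vamp1 encodes synaptobrevin 1, known as the leading vesicle SNARE of motor endings in mice. It lies at chr6:125215551-125245964 on the plus strand, with a main transcript of 2772 bases. It had 9 reads in replicate 1 (8.39 RPM) and 10 in replicate 2 (13.3 RPM), a mean of 10.8 ± 3.45 RPM (SD, n = 2), and ranked 9232 of 18510 genes, against rank 77 for Vamp2. Vamp1-201 accounted for 3 of the 4 full chains in replicate 1 and for all 5 in replicate 2, and Vamp1-203 for the other in replicate 1. At this depth the choice among Vamp1 forms could not be measured.

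Cplx1 and Cplx2 encode complexins 1 and 2, and each reads through 134 codons. Cplx1 lies at chr5:108518554-108550024 on the minus strand, with a main transcript of 2189 bases. It had 815 reads in replicate 1 (760 RPM) and 482 in replicate 2 (640 RPM), a mean of 700 ± 85.1 RPM (SD, n = 2), rank 139. Cplx1-201 took 594 of 602 full chains in replicate 1 (98.7%) and 360 of 368 in replicate 2 (97.8%). The 1 unannotated chain in both libraries shifts the acceptor of exon 2 by 4 bases, ahead of the start codon, with 6 reads in each and the 134 codons kept. A further 170 reads in replicate 1 (20.9%) and 94 in replicate 2 (19.5%) fell on a model of 1 exon inside the last exon, which the tables class as Genomic in replicate 1 and as incomplete in replicate 2.

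Cplx2 was recorded almost wholly as fragments of its last exon. It lies at chr13:54371349-54383917 on the plus strand, and its main transcript of 4928 bases ends in an exon of 4406 bases. It had 242 reads in replicate 1 (226 RPM) and 213 in replicate 2 (283 RPM), a mean of 254 ± 40.3 RPM (SD, n = 2), rank 647. Of these, 228 in replicate 1 (94.2%, 90.5 to 96.5%) and 208 in replicate 2 (97.7%, 94.6 to 99.0%) fell on 1 unspliced model of 3930 bases inside that exon, against a share of unspliced reads of 11.1% and 11.9% over all annotated genes.

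Spliced Cplx2 molecules were few. Cplx2-201 accounted for 3 of 12 full chains in replicate 1 and 1 of 4 in replicate 2. The first intron of Cplx2-201 was spliced in 9 and 2 reads, and another 3 and 2 reads reached exon 2 from a donor 59471 bases further upstream, which the annotation does not hold. A further 29 reads in replicate 1 and 18 in replicate 2 lay on the same strand in unspliced models that begin at the last annotated base of the gene and that the tables class as intergenic. On the opposite strand of the last exon the tables hold 994 reads in replicate 1 and 875 in replicate 2, which is 80.4% of all reads at the gene in each library; of the 3772 genes with 100 or more reads, 10 (0.265%) had more reads on the opposite than on their own strand in both libraries. How strand was set for unspliced reads is not given in the sources used here, so the level of Cplx2 is uncertain.

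**Figure D2:**
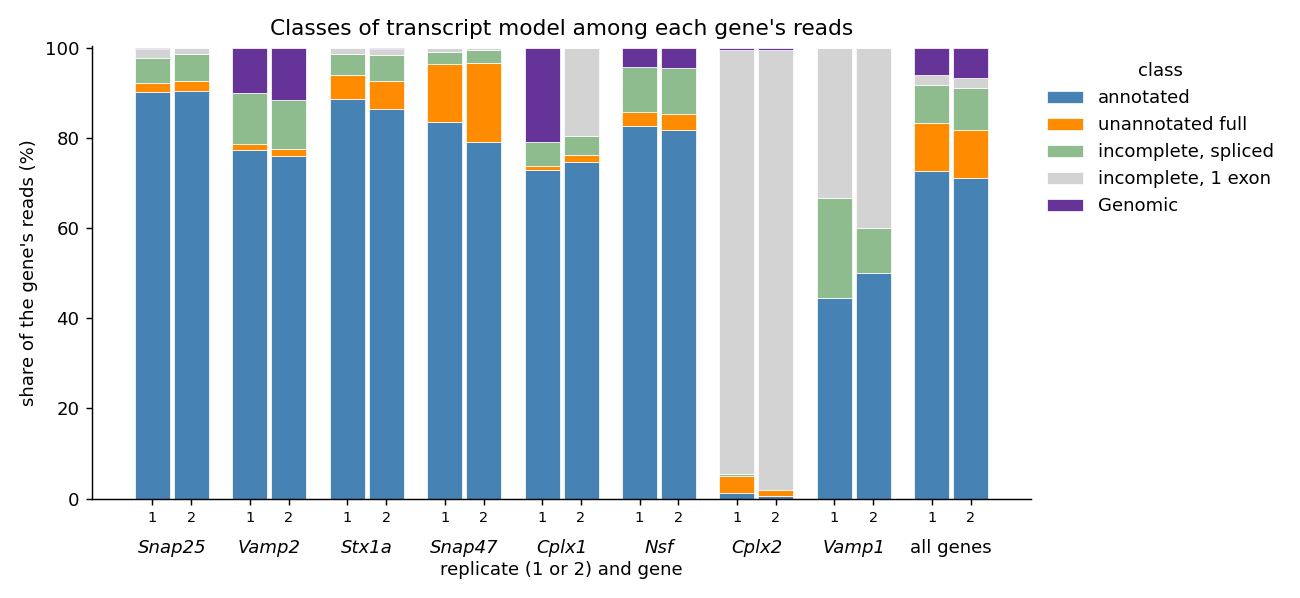
Shares of each gene's reads in percent by class of transcript model, 1 bar per library (1 and 2), genes ordered by level with all annotated genes at the right. Annotated chains make up 72.9 to 90.5% of reads in the 6 most abundant genes and 1.24 and 0.469% in Cplx2, where unspliced incomplete models take 94.2 and 97.7%; the unspliced part of Cplx1 is classed as Genomic in replicate 1 and as incomplete in replicate 2. Vamp1 has 9 and 10 reads in all.

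Nsf encodes the ATPase that disassembles SNARE complexes. It lies at chr11:103821782-103954056 on the minus strand, with a main transcript of 3766 bases in 21 exons. It had 725 reads in replicate 1 (676 RPM) and 482 in replicate 2 (640 RPM), a mean of 658 ± 25.8 RPM (SD, n = 2), rank 152. Most reads ran through the whole chain in spite of its 20 junctions, with the first junction in 84.8% of the gene's reads in replicate 1 and 85.3% in replicate 2, and the last in 94.5% and 93.4%. Nsf-202 took 597 of 623 full chains in replicate 1 (95.8%, 94.0 to 97.1%) and 391 of 412 in replicate 2 (94.9%, 92.3 to 96.6%). The most abundant unannotated chain moved the acceptor of the last exon by 3 bases, in 4 and 2 reads, and leaves 743 codons in place of 744. The next skipped exons 3 and 4, in 3 and 1 reads, and its frame ends after 38 codons.

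**Figure D3:**
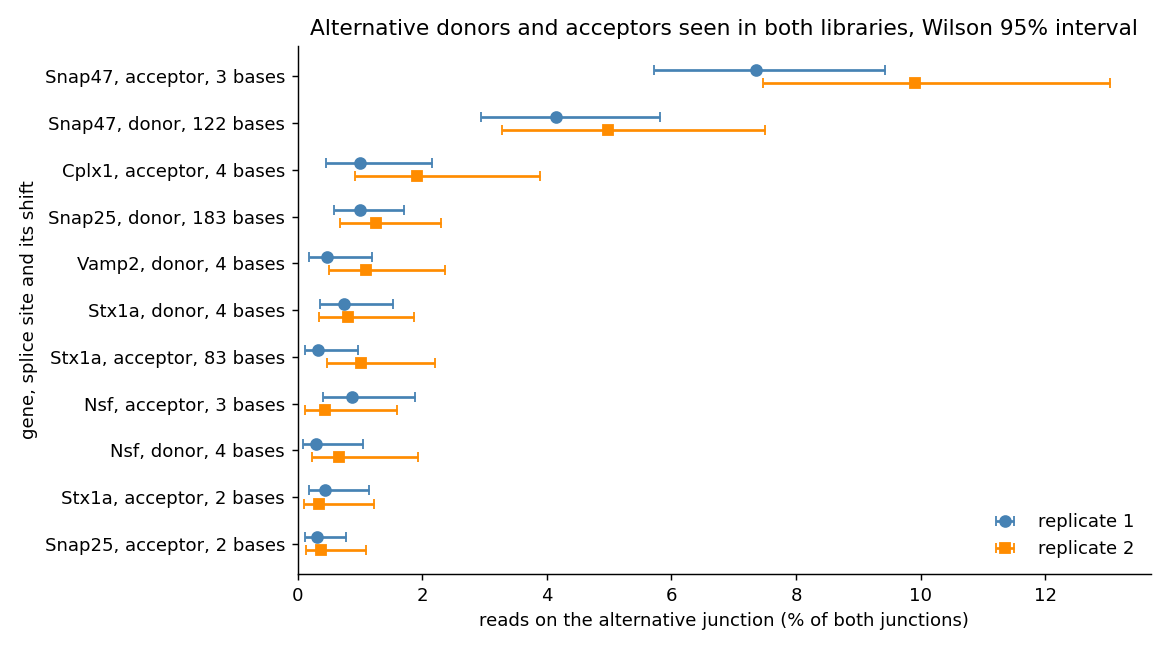
Reads on an alternative donor or acceptor in percent of the reads on it and on the usual site, for shifts under 200 bases seen in both libraries, with Wilson 95% intervals; Cplx2 is left out for its few spliced reads. The Snap47 acceptor shifted by 3 bases stands at 7.36 and 9.91% and its donor shifted by 122 bases at 4.14 and 4.99%, and the other sites are below 2% in each library.

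Across the 8 genes, 106 unannotated full chains were seen, with 240 reads in replicate 1 and 186 in replicate 2, and 21 of them were found in both libraries. By gene these were 5 in Snap25, 5 in Snap47, 5 in Stx1a, 4 in Nsf, 1 in Vamp2, 1 in Cplx1 and none in Vamp1 and Cplx2. No share of a main transcript was called in any of the 6 genes with enough full chains to test, against 6 of 5134 genes over all (0.117%); Snap47 was the 1 with an unadjusted p under 0.05, against 226 of 5134 over all genes.

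In order of level by reads on the gene's own strand, Snap25 led and was followed by Vamp2, Stx1a, Snap47, Cplx1, Nsf, Cplx2 and Vamp1. The libraries' values of neighbours in this order do not overlap for Snap25 and Vamp2, Vamp2 and Stx1a, Stx1a and Snap47, Nsf and Cplx2, or Cplx2 and Vamp1. They overlap for Snap47 and Cplx1, which kept their order within each library. They also overlap for Cplx1 and Nsf, which had 482 reads each in replicate 2. Overlap here compares the 2 values of each gene and leaves out counting error. With annotated transcripts alone, Stx1a passed Vamp2, Nsf passed Cplx1 and Vamp1 passed Cplx2, which stood at 3.12 RPM of the annotated reads. With reads assigned to the opposite strand counted to each gene, an alternative added after the values were seen, Cplx2 stood at 1153 RPM in replicate 1 and 1444 RPM in replicate 2. By the mean of the libraries it then came second, at 1298 ± 206 RPM beside 1318 ± 124 RPM for Snap25 (SD, n = 2), and it led in replicate 2. The place of Cplx2 in the order thus depends on which reads are counted to it.

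**Figure D4:**
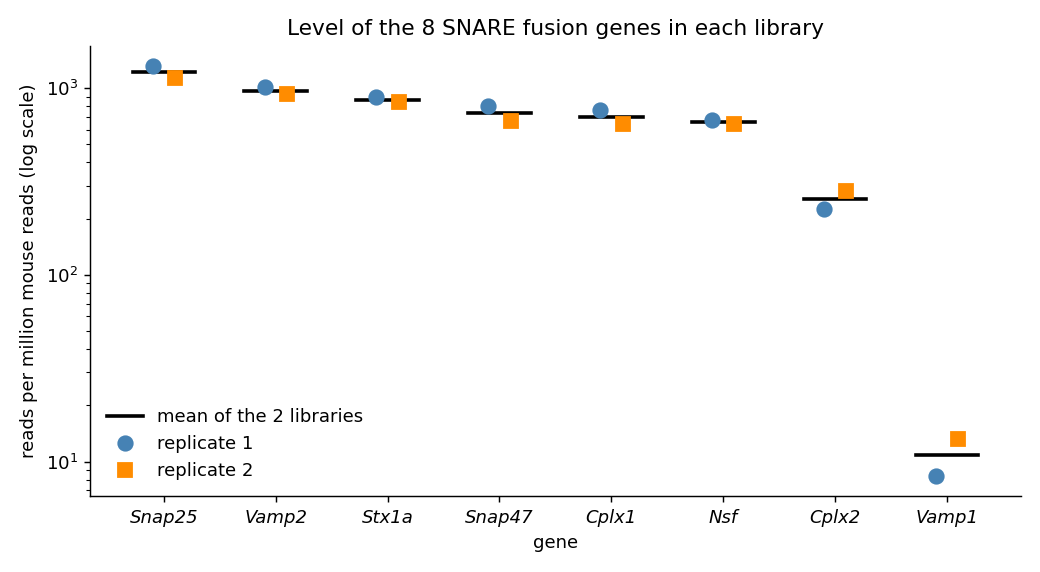
Level of each gene in RPM on a log axis, with replicate 1 as circles, replicate 2 as squares and bars at the mean of the 2 libraries. The 6 most abundant genes lie between 640 and 1308 RPM, Cplx2 at 226 and 283 RPM and Vamp1 at 8.39 and 13.3 RPM.

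Together the 8 genes held 6094 reads in replicate 1 (0.568% of mouse reads) and 3880 in replicate 2 (0.515%). The log2 ratio of replicate 2 over replicate 1 was below 0 for 6 genes, with Snap47 at -0.25, Cplx1 at -0.25, Snap25 at -0.20, Vamp2 at -0.13, Stx1a at -0.08 and Nsf at -0.08. It was above 0 for Cplx2, at 0.33, and Vamp1, at 0.65. None of the 8 was called by the two-sided exact binomial test, against 100 of 11339 genes over all (0.882%). The smallest adjusted p were 0.101 for Snap25, 0.118 for Snap47 and 0.151 for Cplx1. Unadjusted p were under 0.05 for 4 genes, Snap25 (0.00125), Snap47 (0.00168), Cplx1 (0.00278) and Cplx2 (0.0172), against 975 of 11339 over all (8.60%).

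These differences moved with the scaling of the libraries. The median log2 ratio was -0.11 over the 8 genes and -0.0035 over all genes tested. With edgeR's TMM factors, Snap25 (log2 ratio -0.23, adjusted p = 0.0303) and Snap47 (-0.28, adjusted p = 0.0497) were called; over 8 alternative settings their adjusted p ranged from 0.0303 to 0.844 and from 0.0497 to 1. With ERCC spike-ins as the scale, the median over all genes shifted to 0.24 and that of the 8 genes to 0.14, Cplx2 was called (0.57, adjusted p = 0.00307, range over 7 settings 0.00307 to 0.897), and Snap25, Vamp2, Stx1a and Nsf had ratios above 0.

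Other genes of the pathway set the 8 in context. Of 55 listed genes, 54 had a read and 49 had the 10 reads needed for the test; none was called in either direction by the exact binomial test, and 4 had an unadjusted p under 0.05. Over all genes, 100 of 11339 were called (0.882%) and 975 had an unadjusted p under 0.05 (8.60%). The median level of the 55 pathway genes was 32.6 RPM, and 1 of them had a mean above 600 RPM, as did 6 of the 8 fusion genes.

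Levels of these genes are means ± SD of the 2 libraries. An SD from 2 values can be small where they happen to lie close, and it does not measure counting error. Among regulators and chaperones, the chaperone gene Sgta had 418 ± 33.6 RPM (SD, n = 2), Dnajc5, which encodes the cysteine string protein that protects SNAP-25 from misfolding, 232 ± 0.689 RPM, and the syntaphilin gene Snph 142 ± 19.5 RPM. The adaptors that bring NSF to the complex were led by Napa, with 517 ± 34.3 RPM, and Napb, with 260 ± 2.30 RPM, while Napg had 24.0 ± 3.60 RPM.

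The close relatives named here of Stx1a, Snap25, Vamp2 and Cplx1 had fewer reads than these genes in both libraries. Of the syntaxin genes, Stx3, Stx2 and Stx4 had 22.5 ± 0.127, 18.9 ± 2.31 and 7.71 ± 0.355 RPM. Snap23 and Snap29, which serve fusion in most cell types, had 11.6 ± 3.32 and 5.38 ± 3.65 RPM. Of the other VAMP genes, Vamp4 had 131 ± 19.2 RPM, Vamp3 45.6 ± 1.19 RPM, Vamp7 17.2 ± 1.93 RPM and Vamp8 6.38 ± 1.52 RPM; Vamp4, Vamp3 and Vamp7 thus stood above Vamp1 in both libraries. Cplx3, a complexin best known from retina, was at 32.6 RPM (35 reads) in replicate 1 and 10.6 RPM (8 reads) in replicate 2, with a log2 ratio of -1.55, an unadjusted p of 0.00278 and an adjusted p of 0.151 by the exact binomial test, and Cplx4 had no read in either library. Among endosomal and Golgi SNARE genes, Stx7 had 241 ± 9.30 RPM, Vti1b 159 ± 11.1 RPM, Stx6 147 ± 0.0227 RPM and Gosr2 129 ± 28.6 RPM.

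**Figure D5:**
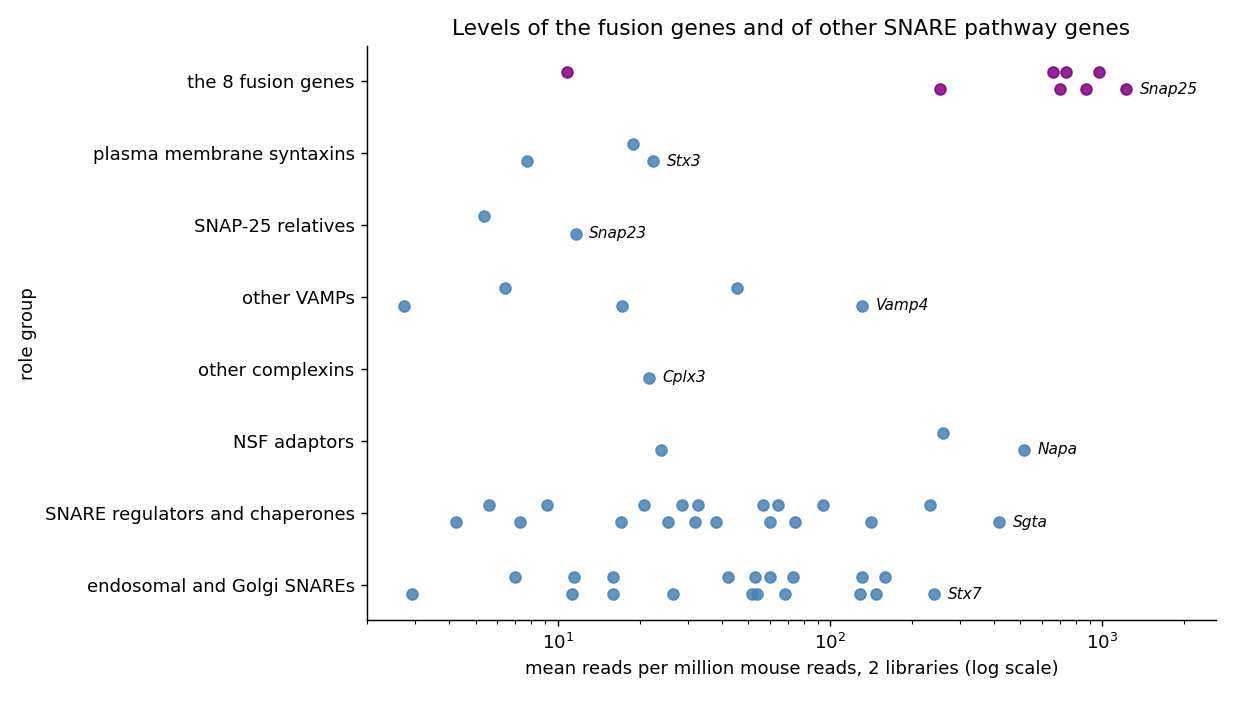
Mean RPM over the 2 libraries on a log axis for the 8 fusion genes and for 52 other SNARE pathway genes by role group, 1 point per gene, with the top gene drawn in each group named. Snap25 is at 1223 RPM; Cplx4, with no read, is not drawn.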

How the data were processed

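Long-read RNA-seq of total RNA gave 2 libraries of 1 group. The authors deposited, for each library, unnormalized counts of reads on every transcript model and the models' exons; mm10 and GENCODE M21 were the genome and annotation, per the file headers, and the deposited model files name TALON. The authors gave each model a gene and a class; the aligner was not given in the sources used here. Replicate 1 held 1087280 reads, 1.37% of them on ERCC spike-ins, and replicate 2 held 762376, 1.16%.

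Models were matched between libraries by intron positions. Gene counts are sums over models, and log2 ratios use a pseudocount of 0.5 reads. Genes with 10 or more reads were tested by an exact binomial test (two-sided, expected shares from the totals of mouse reads); exon inclusion, intron retention and main transcript shares with 20 or more informative reads in each library by two-sided Fisher's exact test, all with Benjamini-Hochberg adjustment over every feature tested (Python 3.11.15, scipy 1.17.1). edgeR 4.0.16 gave TMM factors (0.991 and 1.009); its tests, and those of DESeq2, need more than 1 group. A kept intron must be covered with 10 bases of exon on each side. Codons were read from GENCODE M21 transcript sequences. The tests were tested on simulated data. Reads were not corrected for duplicates, and genes sharing reads with near-identical copies are uncertain.

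The members, lists and naming rule were chosen with earlier results of these data known. Named are the 8 genes, the 4 pathway genes with most reads in each of 7 role groups and any called or without a read, introns and exons at 5 to 95%, transcripts at 10% or more of full chains, and the 2 leading unannotated chains per gene; Stx1a-204, Vamp1-203, the Snap47 cassette exon and the chain with both Snap25 exons were named after their values were seen. Stx4 is named Stx4a in the files and was matched by an older symbol, and the other 54 matched directly. Individual values of 2 of the 55 pathway genes are not reported here.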

Additional observations from a re-analysis of the deposited data

Results flagged for a closer look

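Reads assigned to the strand opposite to a gene were left out of the levels above, except where they are said to be counted. They exceeded 3 reads in both libraries at 3 of the 8 genes. At Cplx2 they numbered 994 in replicate 1 and 875 in replicate 2, beside 242 and 213 reads on the gene's own strand. Most lay on 1 unspliced model inside the last exon, with 990 reads over 2619 bases in replicate 1 and 865 over 477 bases in replicate 2. At Snap25 they numbered 104 in replicate 1 and 70 in replicate 2, which is 6.90% and 7.55% of reads at the gene, and 96 and 55 of them lay on 1 unspliced model inside the last exon. At Vamp2 they numbered 13 in replicate 1 and 8 in replicate 2, all on 1 unspliced model in the last exon. The median share over genes with 100 or more reads was 0.268%, both libraries together.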

How the results depend on the processing

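The 8 genes summed to 5416 ± 377 RPM (SD, n = 2); the sum was 6521 RPM with annotated transcripts only, 6004 RPM with models of 2 or more exons only, each relative to its own total, and 6575 RPM with opposite-strand reads counted with their gene, where Cplx2 alone moved by more than its SD (1298 RPM against 254). The 55 pathway genes summed to 4669 ± 105 RPM, and to 4954, 4360 and 4973 RPM with annotated transcripts only, without Genomic models and with models of 2 or more exons only. Members called numbered 0, but 2 with TMM scaling (Snap25, Snap47) and 1 with spike-in scaling (Cplx2); pathway genes called numbered 0, but 1 without Genomic models and 1 with spike-in scaling (Sgta, 0.41, adjusted p = 0.00949, range over 8 settings 0.00949 to 1). Over all genes, 100 calls became 35 with annotated transcripts only, 176 without Genomic models, 323 with spike-in scaling and 63 with models of 2 or more exons only. Log2 ratios changed sign with spike-in scaling for Snap25 (0.043), Vamp2 (0.12), Stx1a (0.16) and Nsf (0.17), where the median of all genes was 0.24. They also changed sign for Cplx1 without Genomic models (0.095), which removes its unspliced reads from replicate 1 only, and for Cplx2 in models of 2 or more exons (-0.84, from few reads). Introns of the members called numbered 1, but 2 without Genomic models and 0 inside exons spliced on both sides. Beyond the constructions just named, the causes were not tested. The shares of Snap25 exons 5a and 5b moved by less than 1 SD, and neither was called, under annotated transcripts only, reads joined to annotated neighbours and, for the shares, reads with exactly 1 of the exons. These settings recount mostly the same reads, so little room was left for the shares to move. A minimum of 10 informative reads cannot move the shares and changes only which exons are tested. Neither exon was called under it. Chains in both libraries numbered 21, and 14 at 2 or more reads in each. Leaving out a library leaves 1, with no test; the members then summed to 5683 RPM without replicate 2 and 5149 RPM without replicate 1. The models of 2 or more exons, the opposite-strand reads and the rule on spliced exons were chosen after seeing the data. Depth limits Vamp1 and the spliced forms of Cplx2. No paired analysis was possible because the libraries are replicates of 1 group, with no second group to pair them with.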
